A study of Mus musculus with 12 samples.

Results

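The genes described here are 7 cytochrome P450 genes whose enzymes act on sterols, steroids and retinoids: Cyp7a1, Cyp8b1, Cyp27a1, Cyp7b1 and Cyp39a1 of bile acid synthesis, the steroid hydroxylase gene Cyp17a1 and the retinoic acid hydroxylase gene Cyp26a1. They were taken by symbol from the 24062 genes counted in the study, of which 104 have a P450 symbol (Cyp followed by a digit). The group was chosen by enzyme function with the liver fold changes and levels of these samples already known, in which Cyp17a1 and Cyp26a1 were among the largest falls. The difference between genotypes in liver is therefore described for these genes library by library, with no test of its own.

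The study measured poly(A) RNA in 12 libraries of liver and gastrocnemius, a calf muscle, from 6 female C57BL/6N mice on chow. Of these animals 3 were wild type (WT; animals 6, 8 and 9) and 3 carried the R135W change on both copies of Mars2, the nuclear gene of the mitochondrial methionyl-tRNA synthetase (R135W; animals 5, 7 and 12). Ages were 9.0 weeks for WT 6, WT 8 and R135W 5, 7.4 weeks for WT 9 and R135W 7, and 8.6 weeks for R135W 12. The labels name no tissue-specific driver for the variant, so effects of other tissues on liver and muscle cannot be told apart from the tissue's own, and they give no time of day or feeding state at collection.

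Bile acids are made from cholesterol in hepatocytes. In the classic pathway Cyp7a1 adds the first hydroxyl group to the sterol ring and Cyp8b1 sets how much of the product is cholic acid, while in the alternative pathway mitochondrial Cyp27a1 first oxidises the side chain and Cyp7b1 then acts on the ring. Bile acids repress Cyp7a1 and Cyp8b1 through the receptor FXR, and Cyp7a1 RNA follows the time of day. Retinoic acid induces Cyp26a1, whose enzyme breaks retinoic acid down, so the gene is widely used as a readout of retinoic acid signalling.

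Promoter sequences show what lies directly upstream of the genes on which the results turn. RefSeq (GRCm38.p6) gave the 250 bases before the transcription start for 3 of the 7 genes, printed 5′ to 3′ on the strand of the gene. Cyp26a1 is shown because its level fell in R135W liver, Cyp27a1 because its level fell in R135W muscle, and Cyp8b1 as a hepatocyte gene of the classic pathway whose groups overlapped. Capitals mark 3 of the motifs searched on both strands: a direct repeat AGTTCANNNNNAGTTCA of the kind bound by retinoic acid receptors, a CAAAGTCCA core of the kind bound by HNF4, and TATAAA.
Cyp26a1, chr19:37697558-37697807, plus strand: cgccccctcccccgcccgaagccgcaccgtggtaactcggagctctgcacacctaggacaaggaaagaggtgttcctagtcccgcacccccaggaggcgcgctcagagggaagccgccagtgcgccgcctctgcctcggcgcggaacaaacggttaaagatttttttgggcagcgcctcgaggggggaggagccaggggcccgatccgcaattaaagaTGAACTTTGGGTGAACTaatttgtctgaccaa
Cyp27a1, chr1:74713285-74713534, plus strand: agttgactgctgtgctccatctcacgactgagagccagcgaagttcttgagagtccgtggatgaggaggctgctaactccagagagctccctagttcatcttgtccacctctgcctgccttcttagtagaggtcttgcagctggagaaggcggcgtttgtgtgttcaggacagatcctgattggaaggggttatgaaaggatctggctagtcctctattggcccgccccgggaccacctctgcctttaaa
Cyp8b1, chr9:121916306-121916555, minus strand: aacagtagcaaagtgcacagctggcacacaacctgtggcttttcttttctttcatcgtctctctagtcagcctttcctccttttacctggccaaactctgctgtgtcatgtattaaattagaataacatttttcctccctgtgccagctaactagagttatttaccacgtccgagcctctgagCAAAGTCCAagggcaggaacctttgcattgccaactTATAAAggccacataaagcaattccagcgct

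The repeat in Cyp26a1 reads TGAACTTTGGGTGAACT on the gene's strand, from -32 to -16 counted from the start, so the AGTTCA copies lie on the other strand. Over all 32851 RefSeq promoters in the table, each 300 bases from 250 before the start to 50 after it, 8 held this repeat (0.0244%). Among genes with such a promoter, Cyp26a1 and Blvrb, the biliverdin reductase B gene, were tested in liver, and Blvrb stood at 0.00 (SE 0.19; adjusted p = 0.994) on the log2 scale of R135W minus WT. In Cyp8b1 the HNF4 core lies at -67 to -59 and TATAAA at -31 to -26, with motif shares of 0.475% and 13.6% over all promoters. None of the motifs searched was found in the Cyp27a1 window. These included the nuclear receptor hexamer AGGTCA (16.3% of promoters), the D-box TTATGTAA (0.938%) and the E-box CACGTG (7.15%), and the last 3 were found in none of the 3 windows. The share of G and C in the 250 bases was 61.6% in Cyp26a1, 54.0% in Cyp27a1 and 44.8% in Cyp8b1, against a median of 52.4% over all promoters.

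Total counts ran from 20751583 to 30460237 per library. A level is a count scaled to library size with TMM factors within a tissue (CPM), and a difference is a log2 fold change of R135W minus WT with its SE. A gene is called when its Benjamini-Hochberg adjusted p, over all genes tested in that comparison by edgeR's quasi-likelihood test, is under 0.05. Hepatocyte markers summed to 99910 to 120100 CPM in the liver libraries and to 16.99 to 62.8 CPM in the muscle libraries, and myofibre markers to 142400 to 187700 CPM in muscle and 1.39 to 2.38 CPM in liver, as the tissue labels say. Mars2 itself had a liver range of 2.30 to 3.48 CPM in WT and of 2.47 to 3.67 CPM in R135W. In muscle its range was 10.7 to 12.6 CPM in WT animals and 8.59 to 10.5 CPM in R135W animals; a missense change does not have to alter these levels, so they do not check the genotype. In liver, WT 6 lay far below WT 8 and WT 9 for Cyp7a1 and for the clock output gene Dbp, as given below. Among the 3 WT livers it had the lowest level of 6 of the 7 P450s, and among the 3 R135W livers animal 12 had the lowest level of 5.

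All 7 genes passed the filter on low counts in liver. Of them 2 were called, Cyp17a1 and Cyp26a1, both lower in R135W; over all genes tested in liver 457 of 13935 were called (3.28%), 73 of them lower (0.524%). Since the group was chosen with this contrast known, nothing is read from that count.

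Cyp7a1 encodes the rate-limiting enzyme of the classic pathway (chromosome 4, 6265612 to 6275631, minus strand, mm10; 6 exons, 4172 exonic bases). In WT liver it stood at 7.18 CPM in animal 6, 109 CPM in animal 8 and 72.5 CPM in animal 9. In R135W liver it stood at 131 CPM in animal 5, 51.7 CPM in animal 7 and 43.6 CPM in animal 12. The groups overlapped, and the lowest and highest WT livers were 15.2-fold apart. The log2 fold change was 0.26 (SE 0.76), positive with all libraries but -0.27 (SE 0.44) without WT 6 and -0.40 (SE 0.78) without R135W 5.

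Cyp8b1, a gene with a single exon, encodes the sterol hydroxylase of the cholic acid branch (chromosome 9, 121914356 to 121916305, minus strand; 1950 bases). Its levels were 99.5, 159 and 183 CPM in WT 6, 8 and 9 and 102, 161 and 49.1 CPM in R135W 5, 7 and 12. R135W 12 lay below every WT liver, while the other two R135W livers lay within the WT range. Its fitted log2 fold change of -0.50 (SE 0.38) was not called. Per kilobase of exon, the ratio of Cyp8b1 to Cyp7a1 was 29.7 in WT 6, 3.11 in WT 8 and 5.39 in WT 9, and 1.66, 6.67 and 2.41 in R135W 5, 7 and 12. The 5 livers other than WT 6 were thus within a range of 1.66 to 6.67, with both genotypes across it.

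Cyp27a1 encodes the mitochondrial sterol side-chain hydroxylase (chromosome 1, 74713574 to 74737890, plus strand; 9 exons, 1890 exonic bases), 19.5 Mb from Mars2 on the same chromosome. In liver it stood at 553, 589 and 755 CPM in WT 6, 8 and 9 and at 620, 604 and 372 CPM in R135W 5, 7 and 12. Only R135W 12 lay below the WT range, and the log2 fold change of -0.25 (SE 0.22) was not called.

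Cyp7b1, the oxysterol hydroxylase that follows Cyp27a1 in the alternative pathway (chromosome 3, 18071950 to 18243338, minus strand; 6 exons, 2166 exonic bases), had the lowest mean level per kilobase of exon of the 7 genes in WT liver. It stood at 15.1, 19.8 and 25.1 CPM in WT 6, 8 and 9 and at 20.8, 38.2 and 13.4 CPM in R135W 5, 7 and 12. The R135W livers held both the highest and the lowest value of the 6. This gave a log2 fold change of 0.26 (SE 0.35), not called, and -0.23 (SE 0.26) without R135W 7.

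Cyp39a1, an oxysterol hydroxylase gene (chromosome 17, 43667372 to 43751431, plus strand; 12 exons, 3106 exonic bases), stood at 36.5, 41.8 and 62.1 CPM in WT 6, 8 and 9 and at 25.5, 26.1 and 28.2 CPM in R135W 5, 7 and 12. All R135W livers lay below all WT livers; over all genes tested 9.98% were separated in that direction. The log2 fold change was -0.81 (SE 0.19), ranked 228 of 13935 from the most negative, and was not called. The R135W livers lay close together: their coefficient of variation was 5.37%, against a median of 11.2% over 12787 genes of at least 1 CPM in that group and 28.9% for Cyp39a1 in WT.

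Cyp17a1 encodes the hydroxylase and lyase that leads from progestogens to androgens and is best known from gonads (chromosome 19, 46667165 to 46673000, minus strand; 8 exons, 1841 exonic bases). In WT liver it stood at 63.9 CPM in animal 6, 261 CPM in animal 8 and 123 CPM in animal 9. In R135W liver it stood at 33.4 CPM in animal 5, 11.8 CPM in animal 7 and 31.4 CPM in animal 12. All R135W livers lay below all WT livers, although the nearest values, WT 6 and R135W 5, were closer to each other than the WT livers were among themselves. On the log2 scale the difference was -2.54 (SE 0.53), a level 5.82-fold lower and rank 5 of 13935 from the most negative. Over the 6 fits that left out 1 library it ran from -2.91 to -1.87, and 1 of these, the fit without WT 6, kept the call; it was lost without WT 8 or 9 or R135W 5, 7 or 12.

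Cyp26a1, the retinoic acid hydroxylase gene (chromosome 19, 37697808 to 37701536, plus strand; 7 exons, 1781 exonic bases), lies 8.97 Mb from Cyp17a1. Its levels were 32.4, 61.9 and 21.9 CPM in WT 6, 8 and 9 and 10.1, 15.3 and 8.62 CPM in R135W 5, 7 and 12. All R135W livers again lay below all WT livers. R135W differed from WT by -1.78 (SE 0.37) on the log2 scale, a level 3.42-fold lower and rank 26 from the most negative. It ran from -2.06 to -1.26 over the fits that left out 1 library, of which 1, the fit without WT 9, kept the call; it was lost without WT 6 or 8 or R135W 5, 7 or 12, with age as a covariate and in limma-voom.

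**Figure D1:**
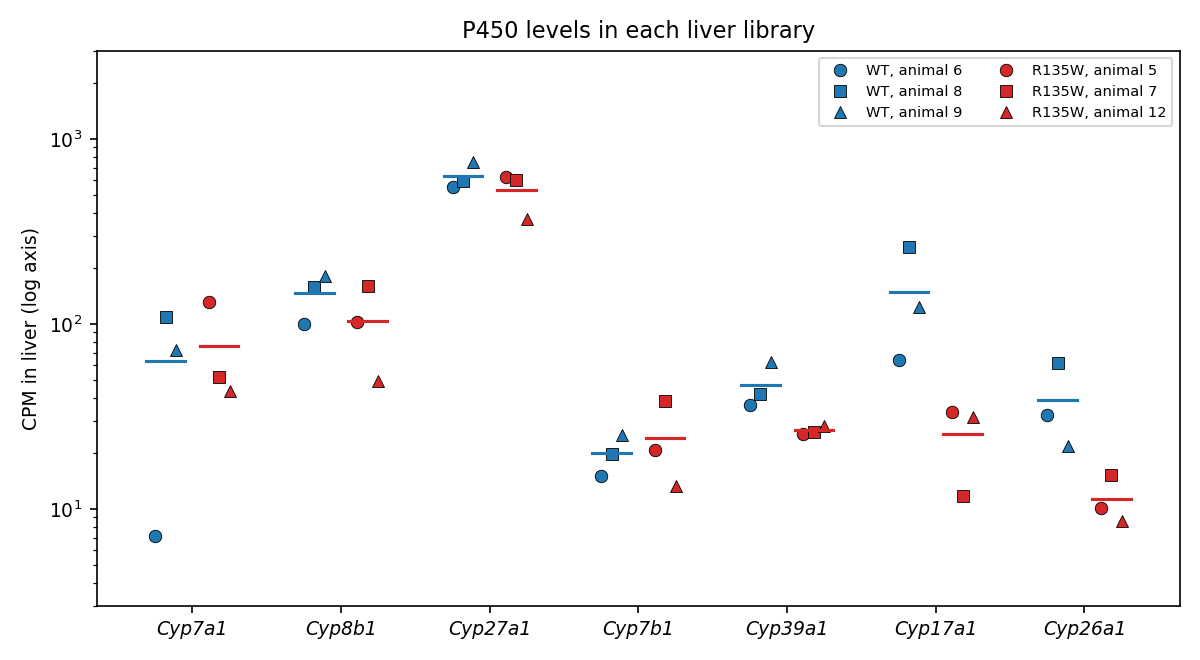
CPM of the 7 P450 genes in each of the 6 liver libraries, on a log axis; symbols mark animals, blue is WT, red is R135W and bars are group means (n = 3). For Cyp39a1, Cyp17a1 and Cyp26a1 all red symbols lie below all blue ones, and for the other 4 genes the groups overlap, with WT 6 at 7.18 CPM for Cyp7a1.

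At matched ages the directions could be read for few animals. Between the 7.4-week animals, WT 9 and R135W 7, the log2 ratio of levels was -3.39 for Cyp17a1, -1.25 for Cyp39a1 and -0.52 for Cyp26a1. Between R135W 5 and the mean of the WT animals of the same age, 9.0 weeks, it was -2.28, -0.62 and -2.22. For Cyp7a1 the same values were -0.49 and 1.18, of opposite sign. With 1 R135W animal at each age there is no test within an age.

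Spread between animals of 1 genotype was large for several of these genes. In WT liver the coefficient of variation was 82.1% for Cyp7a1, 67.8% for Cyp17a1 and 53.6% for Cyp26a1, against a median of 12.98% over 12620 genes of at least 1 CPM. It was 29.1% for Cyp8b1, 24.9% for Cyp7b1 and 17.02% for Cyp27a1. In R135W liver, Cyp7a1, Cyp8b1 and Cyp7b1 varied by 64.2%, 53.8% and 52.8%.

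Compared per kilobase of exon, Cyp27a1 was the most abundant of the 7 in WT liver, at a mean of 335 CPM per kilobase. Cyp17a1 (81.1) and Cyp8b1 (75.4) followed with overlapping ranges, then Cyp26a1 (21.7), Cyp7a1 (15.1) and Cyp39a1 (15.1), each with a range that overlapped the next. Cyp7b1 (9.23) had the lowest mean, with a range below that of Cyp39a1 but within that of Cyp7a1. In R135W liver Cyp27a1 (281) again stood above the rest. Below it Cyp8b1 (53.4), Cyp7a1 (18.1), Cyp17a1 (13.9), Cyp7b1 (11.1), Cyp39a1 (8.57) and Cyp26a1 (6.37) formed a series in which each range overlapped the next.

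To see which tissue normally holds these RNAs, WT liver was compared with WT gastrocnemius. All 7 genes were called higher in liver, where 81.5% of all genes tested were called in either direction and 40.9% were higher in liver. The liver levels were known when the genes were chosen, so these calls and their p-values are a description. Cyp27a1 stood at 78.1, 87.0 and 79.7 CPM in the muscle of WT 6, 8 and 9, a liver level higher by 2.92 (SE 0.15; adjusted p = 6.83e-08). Cyp39a1 stood at 6.63, 6.53 and 7.79 CPM in those muscles, a liver level higher by 2.71 (SE 0.20; adjusted p = 1.01e-06). These were the 2 genes with more than trace counts in muscle.

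The other 5 had at most 14 counts in any muscle library, and summed counts give their ratio of liver to muscle. In WT, Cyp7b1 had 19 counts in muscle, a ratio of 84.4 (95% exact interval 54.1 to 140, which covers counting error only). Cyp26a1 had 6, a ratio of 494 (227 to 1350), Cyp17a1 had 9, a ratio of 1290 (678 to 2820), and Cyp8b1 had 2, a ratio of 5890 (1630 to 48600). Cyp7a1 had 0 counts in WT muscle, which allows up to 0.0379 CPM (3 counts over the group), so it was at least 1660-fold higher in WT liver; 1 R135W muscle library, animal 12, had 2 counts. That library also had 771 counts of the hepatocyte gene Alb, against 123 in WT 6, the next highest, and 7 in WT 8, the lowest of the 6 muscles. In WT muscle both counts of Cyp8b1 came from WT 6. The part of liver RNA in these trace counts was not tested.

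**Figure D2:**
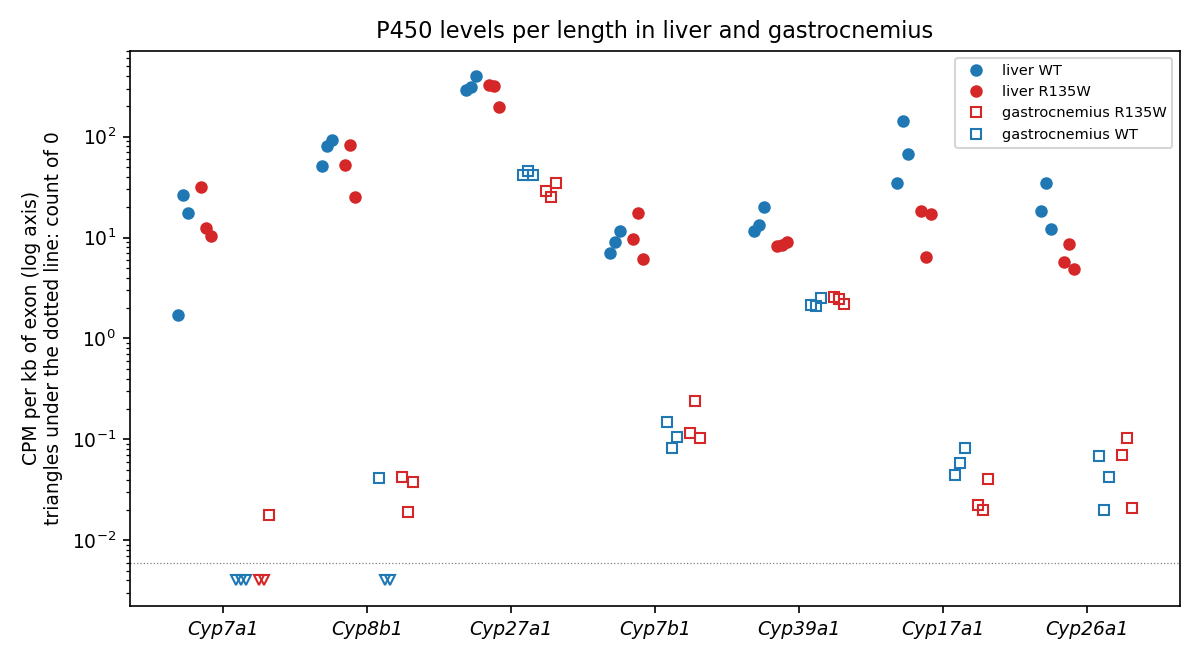
CPM per kilobase of exon of each gene in all 12 libraries, on a log axis; filled circles are liver, open squares gastrocnemius, blue WT and red R135W, and triangles under the dotted line are libraries with a count of 0. Cyp27a1 and Cyp39a1 are the genes with muscle levels above 1 CPM per kilobase, and the other 5 lie far lower in muscle than in liver.

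In muscle the genotypes could be compared for Cyp27a1 and Cyp39a1, the 2 of the 7 that passed the filter there. Earlier muscle results were also known when the genes were chosen. The p-values of these 2 genes are therefore a description and not an independent test. Cyp27a1 fell. It stood at 78.1, 87.0 and 79.7 CPM in WT 6, 8 and 9 and at 55.0, 48.1 and 65.3 CPM in R135W 5, 7 and 12, so all R135W muscles lay below all WT muscles, as for 8.4% of all genes tested there. The log2 fold change was -0.54 (SE 0.10; adjusted p = 0.0496, unadjusted p = 0.000433), a level 1.45-fold lower; 121 of 13826 genes were called in muscle (0.875%), 46 of them lower (0.333%). The adjusted p lay just under the threshold. Without R135W 12 the call was kept (adjusted p = 0.0246), and it was lost without WT 6 (0.105), WT 8 (0.24), WT 9 (0.106), R135W 5 (0.117) or R135W 7 (0.115), in limma-voom (0.0504), with a stricter filter (0.0525) and in a fit of all 12 libraries (0.619). When single libraries were left out, its log2 fold change stayed between -0.66 and -0.44. Between the animals of 7.4 weeks the log2 ratio was -0.73, and at 9.0 weeks it was -0.59.

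Cyp39a1 levels in muscle ran across both genotypes. The gene stood at 6.63, 6.53 and 7.79 CPM in WT 6, 8 and 9 and at 7.95, 7.65 and 6.85 CPM in R135W 5, 7 and 12. The groups overlapped, and the log2 fold change was 0.10 (SE 0.12; adjusted p = 0.817).

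**Figure D3:**
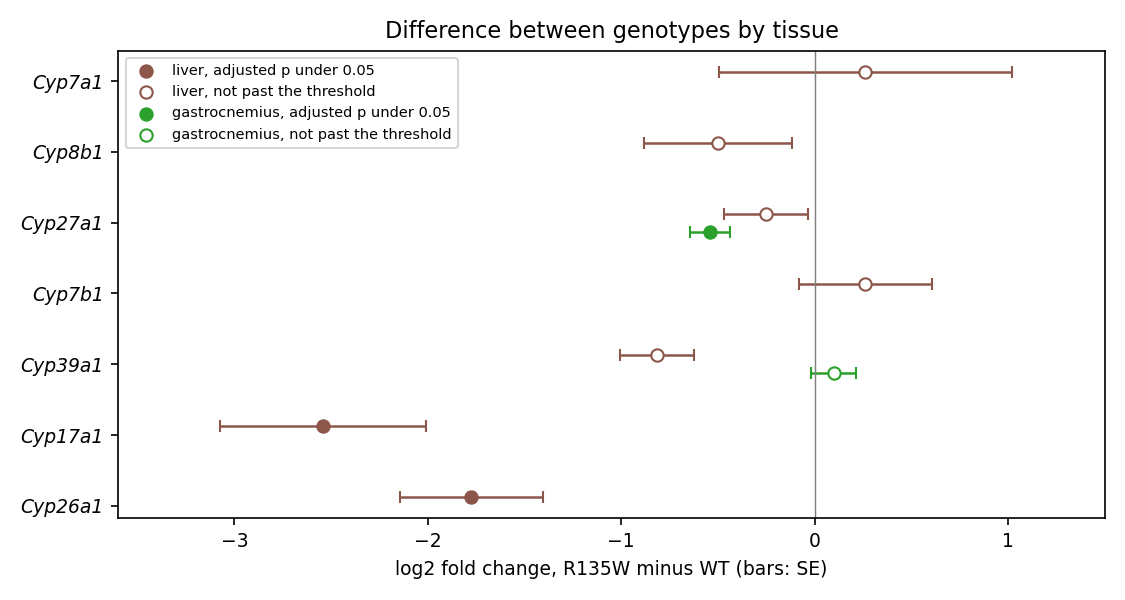
Log2 fold change of R135W minus WT with its SE for each gene, brown in liver and green in gastrocnemius; filled points are called at an adjusted p under 0.05. Cyp17a1 (-2.54) and Cyp26a1 (-1.78) are filled in liver and Cyp27a1 (-0.54) in gastrocnemius, where 5 genes were too low to test.

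The difference between tissues in the genotype effect was tested as an interaction over all 12 libraries, which contains the liver contrast. None of the 7 genes was called by edgeR, where 20 of 15414 genes were (0.13%). Unadjusted, 1 of the 7 had a p under 0.05 (9.95% of all genes), DESeq2 called 1 and limma-voom 0. That gene was Cyp39a1 in each case, with a difference, liver effect minus muscle effect, of -0.92 (SE 0.24). Since its liver values were known when the genes were chosen, this is a description. For Cyp27a1 the difference was 0.28 (SE 0.27; adjusted p = 0.787), so a call in muscle and none in liver does not show that its effect differed between the tissues. For Cyp17a1 and Cyp26a1 the muscle counts of 1 to 5 per library left SEs of 2.83 and 1.397 around differences of -1.46 and -2.36, and a difference between tissues was not detectable at this depth.

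**Figure D4:**
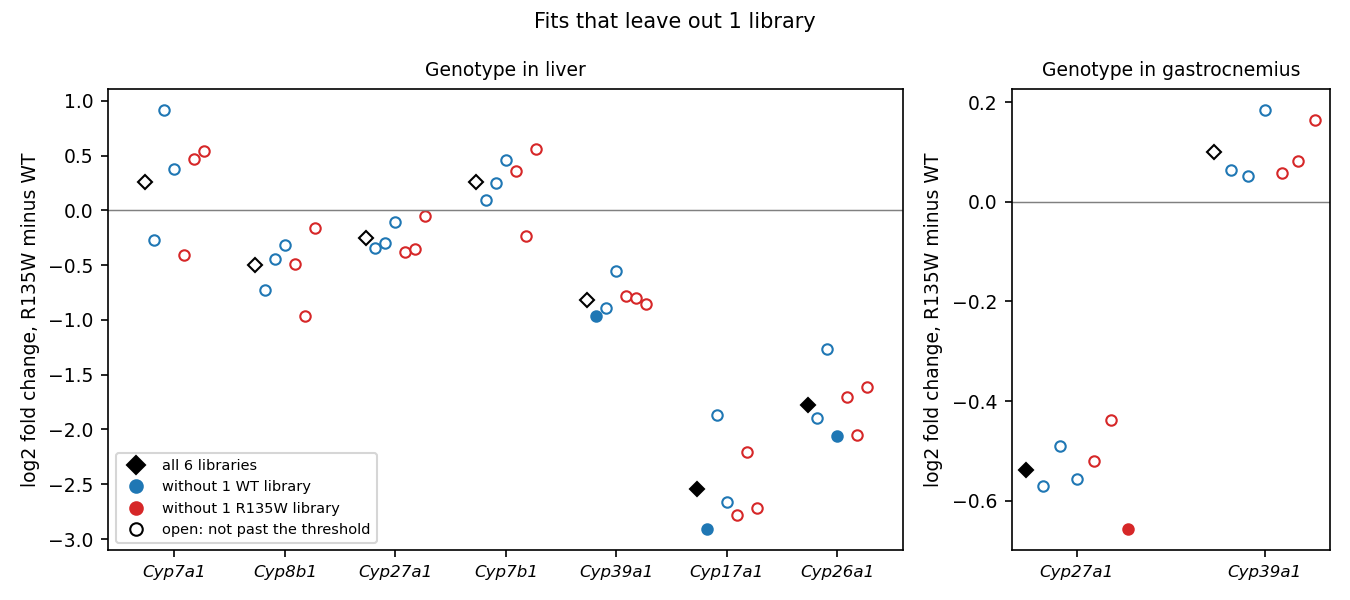
Log2 fold change of R135W minus WT from all 6 libraries of a tissue (black diamonds) and from the 6 fits without 1 library (blue, a WT library left out; red, an R135W library left out); filled symbols are called at an adjusted p under 0.05, and the panels have different scales. In liver Cyp17a1 spans -2.91 to -1.87 and Cyp26a1 -2.06 to -1.26, each with 1 filled circle, and Cyp7a1 and Cyp7b1 cross 0.

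For each of the 7 genes the 3 genes with the most similar profile over the 6 liver libraries were taken by Pearson correlation of log2 CPM, among 12731 genes of at least 1 CPM. With 6 libraries such values are high by selection and carry no p. Cyp7a1 was closest to Lyplal1 (r = 0.998), Mettl7a2 and Stim2, and Cyp8b1 to Impdh2 (r = 0.991), Junb and Kctd7. Cyp27a1 was closest to Xbp1 (r = 0.989), Tatdn1 and Ces3b. For Cyp7b1 the genes taken included Bsg (r = 0.98) and Rmdn3 (r = 0.98). Cyp39a1 was closest to Gfra1 (r = 0.997), Slc25a13 and Hspa13, Cyp17a1 to Snx16 (r = 0.994), Map2k4 and Grid1, and Cyp26a1 to Lin52 (r = 0.997), Tardbp and Mettl9. The number of genes above 0.95 ran from 9 for Cyp7b1 to 101 for Cyp26a1. The 7 genes themselves were left out of the genes compared, so their likeness to each other was not examined.

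The genes around the P450s were examined by list, each read against the 3.28% of genes called in liver, the 17.6% with an unadjusted p under 0.05 and a median of -0.01 over all genes. Of the other bile acid synthesis and conjugation enzymes 0 of 17 tested passed edgeR's test, 3 had an unadjusted p under 0.05, all lower, and DESeq2 called 2 and limma-voom 0. The list median was -0.27, with 14 of 17 negative. The peroxisomal transporter gene Abcd3 stood at -0.46 (SE 0.13; adjusted p = 0.099) and Slc27a2, an acyl-CoA synthetase of bile acid intermediates, at -0.60 (SE 0.16; adjusted p = 0.0995). Of the genes that sense bile acids or control Cyp7a1 and Cyp8b1, 1 of 16 was called: Ppara, the lipid-sensing receptor, fell from 335 ± 36.1 to 214 ± 21.9 CPM (SD, n = 3; log2 fold change -0.65, SE 0.14, adjusted p = 0.0437), and the count was 0 in each of the 6 fits that left out a library and with age as a covariate. Nr0b2, the repressor SHP that bile acids induce, was looked at after its values were seen and stood at 86.5, 77.5 and 66.5 CPM in WT 6, 8 and 9 and at 70.8, 90.6 and 53.7 CPM in R135W 5, 7 and 12. Those ranges overlapped.

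Of the bile acid and bile lipid transporters 0 of 17 passed (2 unadjusted, DESeq2 1, limma-voom 0; median -0.05). The uptake transporter gene Slc10a1 stood at -0.63 (SE 0.21; adjusted p = 0.164) and Slco1b2, another uptake transporter gene, at -0.50 (SE 0.19; adjusted p = 0.224). Of the redox partners that pass electrons to P450s 0 of 6 passed by edgeR, 0 unadjusted and 0 by DESeq2 or limma-voom. Por, the reductase of microsomal P450s, ran from 430 to 1042 CPM in WT and from 347 to 528 CPM in R135W, and Fdx1, the ferredoxin of mitochondrial P450s such as Cyp27a1, from 47.1 to 59.7 and from 40.2 to 50.8 CPM. Of the cholesterol synthesis and uptake genes 1 of 20 was called, Hsd17b7 at -0.84 (SE 0.14; adjusted p = 0.0205), although all 20 were negative with a median of -0.29. DESeq2 called 5; without WT 6 edgeR's count was 3, and it was 0 in each of the 5 other fits that left out a library.

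In the list of steroid hormone synthesis and conversion 1 of 17 tested was called. This was the sulfotransferase gene Sult3a1, which fell from 96.6 ± 20.8 to 25.1 ± 13.6 CPM (SD, n = 3; log2 fold change -1.95, SE 0.39, adjusted p = 0.0349). It was also the 1 gene called of 23 with sex-biased levels in liver, a list with a median of -0.30. The steroid list had 0 called without WT 6, WT 8, WT 9 or R135W 7, the sex-biased list 0 without WT 8, WT 9 or R135W 7, and both had 0 with age as a covariate.

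Of the retinoid metabolism genes 0 of 18 passed edgeR's test (4 unadjusted, 3 of them lower; DESeq2 1, limma-voom 0; median -0.20). Cyp26c1, a related retinoic acid hydroxylase gene, stood at 1.35 ± 0.366 CPM in WT and 0.534 ± 0.150 CPM in R135W (SD, n = 3; log2 fold change -1.31, SE 0.33, adjusted p = 0.0808), with the groups apart. Cyp26b1, another such gene, named after its values were seen, stood at 16.3 ± 6.89 CPM in WT and 4.92 ± 6.93 CPM in R135W. Its log2 fold change was -1.79 (SE 0.94, adjusted p = 0.37), with the groups overlapping. Ces1d, a carboxylesterase gene, stood at -0.47 (SE 0.14, adjusted p = 0.142). Of the retinoic acid receptors and genes they induce, 1 of 9 was called, and it rose: Tgm2, the transglutaminase gene, from 129 ± 9.21 to 190 ± 9.23 CPM (SD, n = 3; log2 fold change 0.56, SE 0.11, adjusted p = 0.035). That count was 0 in each of the 6 fits that left out a library, and with age as a covariate. Dhrs3, another gene that retinoic acid induces, was looked at after its values were seen; it stood at 172, 187 and 148 CPM in WT 6, 8 and 9 and at 178, 204 and 134 CPM in R135W 5, 7 and 12. The range of Dhrs3 in R135W thus spanned that in WT.

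**Figure D5:**
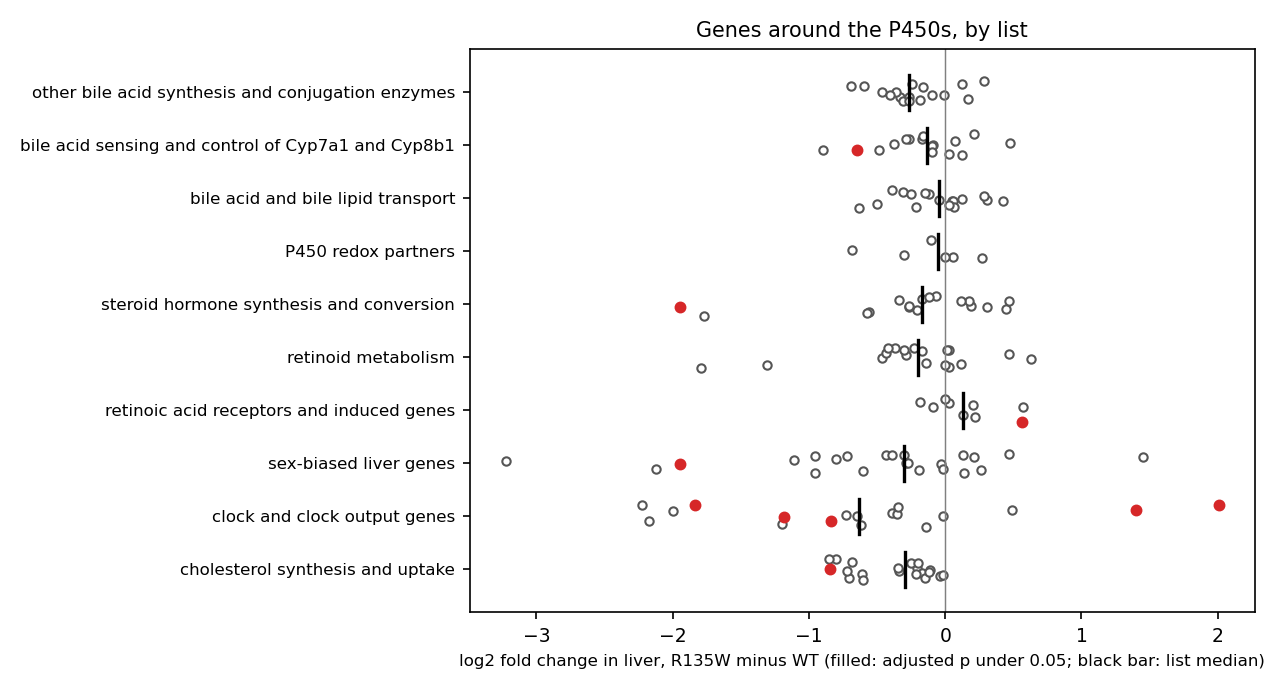
Log2 fold change of R135W minus WT in liver for each tested gene of 10 lists around the P450s; red filled points are called at an adjusted p under 0.05 and black bars are list medians. The clock list has 5 of 18 genes called and the lowest median, -0.63, and each other list has at most 1 gene called.

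Among all P450 symbols, 81 of 104 were tested in liver, of which 1 was called higher and 4 lower. Over all genes tested in liver 3.28% were called, and 0.524% were called lower. Of the 81 symbols 61 were negative, against 50.7% of all genes, and the median was -0.31. These counts include the P450 genes described above, which were chosen with this contrast known. Without those genes 74 symbols were tested, of which 1 was called higher and 2 lower. Of the 74, 56 were negative, and the median was again -0.31. Besides Cyp17a1 and Cyp26a1 the called genes were Cyp2c37 at -1.08 (SE 0.18), the pseudogene Cyp2d37-ps at -0.82 (SE 0.15) and Cyp4f16 at 1.06 (SE 0.17), named after their values were seen; the first 2 have close paralogs that could share their reads. In muscle 22 P450 symbols were tested and Cyp27a1, itself among the chosen genes, was the 1 called. Without the chosen genes 20 symbols were tested in muscle and none was called. In each of the 10 gene lists 0 genes passed in muscle by edgeR, DESeq2 or limma-voom, with 0 to 6 per list at an unadjusted p under 0.05.

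Other genes moved in the same livers. Of 9 markers of Kupffer cells and macrophages 8 were called higher in R135W, as were 384 of all 13935 genes tested. Their summed level ran from 262 to 430 CPM in WT and from 739 to 790 CPM in R135W, with no marker at 0. Emr1 rose from 10.3 ± 2.0 to 29.9 ± 3.79 CPM and Clec4f from 127 ± 34.4 to 236 ± 16.7 CPM (SD, n = 3). Hepatocyte markers had 0 of 10 called and summed to 117200 to 120100 CPM in WT livers and 99910 to 107400 CPM in R135W livers. Pericentral hepatocyte markers, of the zone around the central vein where Cyp7a1 is mainly expressed, had 0 of 10 called and summed to 10000 to 12530 CPM in WT livers and 5305 to 9323 CPM in R135W livers. These sums rest largely on single genes, Alb (mean 67550 CPM in WT and 55850 CPM in R135W) and Cyp2e1 (7638 and 4694 CPM). The median log2 fold changes were -0.135 for hepatocyte and -0.28 for pericentral markers. Among the means not lower in R135W were Trf (13050 and 15270 CPM), Lgr5 (6.19 and 6.21 CPM) and Axin2 (12.7 and 13.7 CPM). Periportal markers summed to 10250 to 16040 and 10710 to 16930 CPM, and stellate cell and fibroblast markers to 282 to 344 and 336 to 355 CPM. In bulk liver, fewer cells of a type and less RNA per cell cannot be told apart, and the part of these shifts in the P450 values was not tested. Adrenal and gonadal markers summed to 3.20 to 5.89 CPM in WT livers and 2.61 to 3.63 CPM in R135W livers. Star made up most of these sums, and its mean was 4.29 CPM in WT liver and 3.80 CPM in WT muscle. Cyp11b1 and Lhcgr had 0 counts in all 6 livers. Cyp17a1 stood at 63.9 to 261 CPM in WT livers, and the part of adrenal or gonadal cells in it was not tested.

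Clock genes also differed in liver: of 18 tested, 15 were negative and 10 had an unadjusted p under 0.05, 8 of them lower. Over all genes 17.6% had such a p. Called were 2 of the 18 as higher in R135W and 3 as lower, where 3.28% of all genes were called. These calls depended on single libraries: without WT 6 there were 1 and 6, without WT 8 or WT 9 0, without R135W 5 or R135W 7 1 and 1, and without R135W 12 1 and 0. Arntl, a core activator, rose by 1.40 (SE 0.21; adjusted p = 0.014) and Npas2, its partner, by 2.01 (SE 0.43; adjusted p = 0.0425). The output factors Hlf, at -0.84 (SE 0.14; adjusted p = 0.0196), and Tef, at -1.18 (SE 0.20; adjusted p = 0.021), fell, as did Bhlhe41, a repressor named after its values were seen. Dbp, an output factor also named after its values were seen, stood at 19.4 CPM in WT 6 against 61.7 and 91.3 CPM in WT 8 and 9, and at 12.6, 19.9 and 6.05 CPM in R135W 5, 7 and 12. WT 6, the liver with 7.18 CPM of Cyp7a1, thus lay within the R135W range for Dbp. The same held for Nr1d1, at 164.1 CPM against 63.89 to 177.3 CPM. WT 6 lay outside the R135W range for Tef (128 against 66.24 to 88.89 CPM) and Hlf (60.8 against 34.5 to 44.59 CPM). It also lay outside for Arntl (8.521 against 16.99 to 25.85 CPM) and Per3 (14.7 against 6.6 to 13.46 CPM). Nr1d1 and Per3, both clock genes, were named after their values were seen. R135W 5, with 12.6 CPM of Dbp, had the highest Cyp7a1 of the 6. The part of the clock in the P450 values was not tested.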

How the data were processed

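The deposited files hold raw counts: per the file headers, fragments over exons of UCSC mm10 gene symbols were counted by the authors with featureCounts 1.5.2, paired, primary alignments only, with a fragment counted for every gene it overlaps and no strand option. Per the submitters' processing notes, alignment was by STAR 2.4.0. The 7 genes share no exon bases with another gene of the annotation. Counts were tested with R 4.3.3 and edgeR 4.0.16 (TMM, filterByExpr by group, quasi-likelihood F test, Benjamini-Hochberg over all tested genes, threshold 0.05): genotype within each tissue (6 libraries), tissue in WT (6) and their interaction (12). SE is the log2 fold change over the square root of F. Alternatives were RLE scaling, DESeq2 1.42.0, limma-voom (limma 3.58.1), no filter, a stricter filter (1 CPM in 3 libraries), age, all 12 libraries, the animal as a block and leaving out each library. The script was checked on simulated counts. Positions and promoters are mm10 (GRCm38).

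The 7 genes, the gene lists and the tests were chosen with earlier results of these data known. Named were the 7 genes, the 3 genes most like each, and from each list up to 4 called genes by smallest p or, with none called, the 2 with the smallest p; other names are marked in the text, and 1 gene most like Cyp7b1 is not reported here. Depth was 20751583 to 30460237 counts per library. Replicate libraries differed beyond counting error, with a chi-squared per degree of freedom of 41.7 to 118 for liver pairs and 8.07 to 17.8 for muscle pairs. The labels do not say how animals were bred or housed, so p-values measure the spread between these animals.

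Liver and muscle libraries carry the same animal numbers in their titles, with the same ages, and were taken as pairs for the block. Deviations from the group mean correlated between the tissues of an animal at -0.00616 to 0.0864 (6 pairs) and between different animals at -0.083 to 0.0778 (12).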

Additional observations from a re-analysis of the deposited data

How the results depend on the processing

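In liver the count of called genes, 457, was 781 in DESeq2 and 274 with age as a covariate. It was 1057 in a fit of all 12 libraries and 84 to 285 when 1 library was left out. Of the 7 P450s 2 were called, and 3 in DESeq2, without a filter and in the fit of all 12 libraries. The gene added there was Cyp39a1. The count was 1 in limma-voom, 1 with age and 0 to 2 when 1 library was left out. Nothing is read from these P450 counts, since the genes were chosen with this contrast known. In gastrocnemius the 121 called genes were 274 in DESeq2, 20 in a fit of all 12 libraries and 3 to 106 when 1 library was left out, and the 1 called P450, Cyp27a1, was 0 in limma-voom, 0 with the stricter filter, 0 with all 12 libraries and 0 to 1 when 1 library was left out. For the difference between tissues the 20 called genes were 184 in DESeq2, 7 in limma-voom and 6 to 34 when 1 library was left out, and the 0 called P450s were 1 in DESeq2. With the animal as a block (the pairing of tissues) 16 genes were called for the difference between tissues and 12032, against 12113, for tissue in WT; the block changed no call of the 7 genes. All 7 stayed called for tissue in WT under each alternative run. The log2 fold change in liver reversed for Cyp7a1 without WT 6 (-0.27) and without R135W 5 (-0.40; range over libraries left out -0.40 to 0.92) and for Cyp7b1 without R135W 7 (-0.23; range -0.23 to 0.56); the difference between tissues reversed for Cyp7a1 without gastrocnemius R135W 12 (0.26; range -3.05 to 0.26), which leaves it no muscle count, and for Cyp7b1 without liver R135W 12 (0.083) and gastrocnemius R135W 7 (0.28; range -0.69 to 0.28). The causes were not tested. Depth limits the 5 genes with at most 14 counts per muscle library.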
